A study of Mus musculus with 30 samples.

Results

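Growth factors exchanged between lung fibroblasts and epithelial cells bear on growth and repair of the epithelium. The 10 genes described here encode factors of this kind, Fgf2, Fgf7, Fgf10, Fgf18, Hgf, Ptn, Mdk, Artn and Pthlh, and Fgfr2, the receptor that FGF7 and FGF10 act through. Not all of them were higher in fibroblast libraries here. They were taken by gene symbol, 10 of the 55487 genes counted, and each symbol belonged to 1 gene.

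The counts came from mouse lung organoid cultures, in which freshly isolated Epcam+ epithelial cells of wild-type C57BL/6J mice over 8 weeks old grew in Matrigel together with CCL206, an established mouse lung fibroblast line. The fibroblasts had been stopped from dividing with mitomycin C. All samples are labelled WT. Cultures of 4 mice were exposed for 72 hours to vehicle, to an exacerbation cocktail (EC), to an IPF cocktail (IPFc) or to TGF-β at 2 ng/ml. EC holds 4 factors raised in exacerbations of COPD, which the labels give as TNFα, IL-1β, IL-6 and IL-8. The study's methods state that for mouse cells the cocktail held KC in place of IL-8. IPFc holds 9 factors raised in lungs with idiopathic pulmonary fibrosis, namely TGF-β itself, TNFα, TSLP, the chemokine CCL2, and the interleukins IL-33, IL-13, IL-8, IL-4 and IL-1β. After exposure each culture was separated with Epcam microbeads into an Epcam+ fraction (epithelial libraries) and the remaining CCL206 fraction (fibroblast libraries), and each fraction was sequenced as bulk RNA. The 30 libraries comprised 3 fibroblast vehicle cultures (mice 1, 3 and 4), 4 fibroblast cultures for each of EC, IPFc and TGF-β, 4 epithelial cultures for each of vehicle, EC and IPFc, and 3 epithelial TGF-β cultures (mice 2, 3 and 4). CCL206 is a single line, so fibroblast replicates are separate cultures that differ in the mouse that gave the epithelial cells, and p-values measure the spread between cultures.

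FGF7, FGF10 and HGF are made by lung mesenchyme and act on epithelial cells, FGF7 and FGF10 through FGFR2 and HGF through MET. FGF2 binds several FGF receptors and is best known as a growth factor for mesenchymal and endothelial cells, and FGF18 is a mesenchymal factor of the growing distal lung. Pleiotrophin (Ptn) and midkine (Mdk) are heparin-binding factors that signal through PTPRZ1 and other receptors, artemin (Artn) is a ligand of the GDNF family that signals through GFRα3 and RET, and the hormone-related peptide encoded by Pthlh is in the lung a product of epithelial cells that acts on fibroblasts through PTH1R.

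The libraries held between 5113828 and 20317181 counted reads (median 13843287.0), and the shallowest was the fibroblast EC library of mouse 1. That library also stood apart from its group, with a chi-square per degree of freedom over genes of 72.8 to 76.9 against the other 3 EC libraries, which differed from each other by 10.4 to 28.7. Without mouse 1 the fibroblast EC values of Ptn (-1.96, adjusted p = 2.1e-06), Artn (1.57, 4.3e-04) and Pthlh (2.57, 6.1e-05) were still called. Levels are given as CPM, the count scaled to the library's total, and per gene length as RPKM where genes are compared with each other. Marker RNA of each fraction was found in the other, at levels that differed between treatments, and was read as incomplete separation. The share of epithelial RNA in a fibroblast library was taken as the median ratio of CPM between that library and the epithelial library of the same culture, over marker genes with at least 50 CPM in the epithelial library. It was 23.1% ± 7.26 (SD, n = 3) in vehicle, 44.2% ± 9.36 (n = 4) in EC, 20.2% ± 8.46 (n = 4) in IPFc and 2.28% ± 1.37 (n = 4) in TGF-β libraries. The share of fibroblast RNA in epithelial libraries, found in the same way, was 6% ± 2.43 in vehicle (n = 4), 11.2% ± 4.27 in EC (n = 4), 11.2% ± 5.08 in IPFc (n = 4) and 28.5% ± 2.88 in TGF-β libraries (n = 3). Summed over all 37 epithelial markers, fibroblast libraries held 9069.6 to 13510.3 CPM under vehicle, 13648.3 to 20004.3 under EC, 4466.1 to 11156.6 under IPFc and 376.8 to 956.6 under TGF-β. Summed over 30 fibroblast markers, epithelial libraries held 585.3 to 1165.8, 562.5 to 1402.9, 666.5 to 2095.7 and 7168.7 to 7495.9 CPM in the same order. Of the markers that define fibroblasts, Thy1 was at 0 in the fibroblast vehicle, EC and TGF-β libraries. Immune markers summed to 14.6 to 127.9 CPM and endothelial markers to 6.98 to 35.9 CPM in every group, with Sox17 and Robo4 at 0 throughout. The 6 mesothelial markers summed to 1045.0 to 1203.0 CPM in epithelial vehicle and 544.6 to 660.6 CPM in epithelial TGF-β libraries, and to 101.8 to 536.3 CPM in fibroblast libraries. In epithelial vehicle libraries this sum was nearly all Msln (mean 815.0 CPM) and Upk1b (282.7 CPM). Wt1, Upk3b, Lrrn4 and Muc16 were at 0.02 to 0.657 CPM there. The 8 pericyte and smooth muscle markers summed to 21.3 to 41.4 CPM in epithelial vehicle and 150.1 to 160.8 CPM in epithelial TGF-β libraries, and to 98.8 to 575.3 CPM in fibroblast libraries. In fibroblast vehicle libraries this sum was mostly Notch3 (mean 154.6 CPM) and Cspg4 (113.2 CPM), with Higd1b and Kcnj8 at 0. Rgs5 went the other way, at 18 CPM in epithelial and 0.0546 CPM in fibroblast TGF-β libraries. The part of these cell types in the results was not tested. A carried-over level was computed for the 10 genes and for the genes of the pathway lists, as the share times the level in the other fraction of the same culture. In such bulk samples, fewer cells of a type and less RNA per cell cannot be told apart. The share likewise cannot separate RNA of the other fraction from marker genes expressed by a fraction's own cells. That part was not tested.

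**Figure D1:**
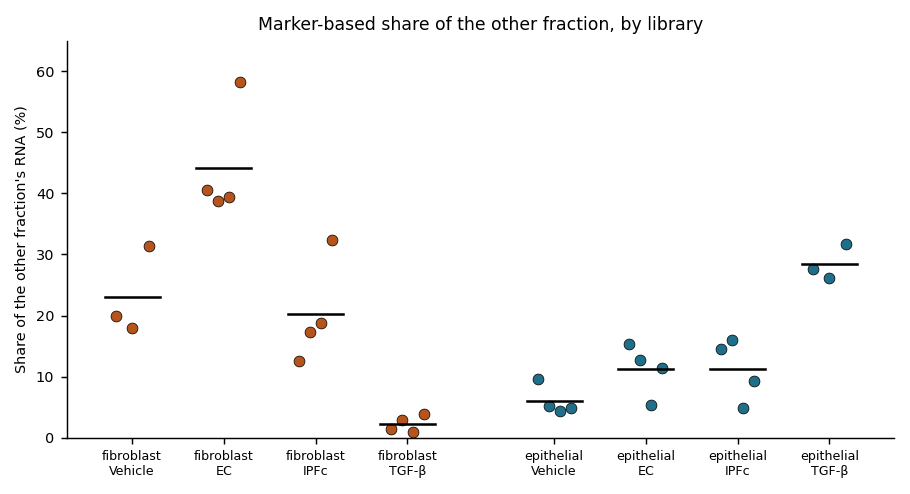
Share of RNA from the other fraction in each library, in percent (vertical axis), by fraction and treatment (horizontal axis), with points for libraries and lines for group means. EC fibroblast libraries lie between 38.7 and 58.2%, above all vehicle libraries (17.9 to 31.4%), and TGF-β fibroblast libraries between 0.949 and 3.9%.

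Fgf2, Fgf7, Fgf10, Hgf and Ptn were higher in fibroblast than in epithelial libraries of the same vehicle cultures, while Artn, Pthlh, Mdk and Fgfr2 were higher in epithelial libraries. Of the 10 genes, all were tested, and 9 passed an adjusted p of 0.05 in this comparison with edgeR's quasi-likelihood test and Benjamini-Hochberg adjustment over all genes, where 47.1% of all genes tested passed, 23.6% higher and 23.5% lower in fibroblast libraries. The fibroblast-side genes differed by a log2 fold change of 4.51 for Hgf (SE 0.43), 4.41 for Fgf10 (0.41), 4.28 for Fgf2 (0.44), 3.82 for Fgf7 (0.33) and 2.61 for Ptn (0.37). The epithelial-side genes differed by -3.58 for Pthlh (0.38), -2.99 for Artn (0.42), -2.20 for Mdk (0.71) and -1.52 for Fgfr2 (0.21). Fgf18 differed by -1.15 with an adjusted p of 0.217. By length, Fgf7 was the highest of these genes in fibroblast vehicle libraries at 20.9 ± 5.96 RPKM (SD, n = 3), followed by Hgf at 10 ± 2.44, Fgf2 at 7.75 ± 2.73, Fgfr2 at 5.95 ± 1.08 and Fgf10 at 4.01 ± 1 RPKM. This order is of measured levels, epithelial RNA included. The mean carried-over level was 40.6 CPM for Fgfr2 (67.5 measured) and 0.201 CPM for Fgf10 (19.8 measured). In epithelial vehicle libraries the order was led by Pthlh at 18.9 ± 1.82 (n = 4) and Fgfr2 at 15.5 ± 0.667 RPKM, followed by Artn at 7.95 ± 1.45 RPKM.

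The same directions held within EC and IPFc cultures. In EC cultures 8 of the 10 passed the test, 5 higher and 3 lower in fibroblast libraries (41.9% of all genes, 21.6% higher and 20.3% lower), and in IPFc cultures 9 passed, 5 higher and 4 lower (52.2%, 25.9% higher and 26.3% lower). Within TGF-β cultures 8 passed, 4 higher and 4 lower (39.8% of all genes, 18.1% higher and 21.7% lower), but the differences of the fibroblast-side genes were 2.13 for Hgf, 1.62 for Fgf2, 1.04 for Fgf10 and 1.00 for Fgf7. Ptn, at 0.81, did not pass there (adjusted p = 0.112). Epithelial-side differences in TGF-β cultures were -8.06 for Pthlh, -5.48 for Artn, -2.23 for Mdk and -1.32 for Fgfr2. Pthlh had no read in 2 of the 4 fibroblast TGF-β libraries, so its fitted value rests on few counts. Without mouse 2, 5 of the 10 passed in TGF-β cultures.

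**Figure D2:**
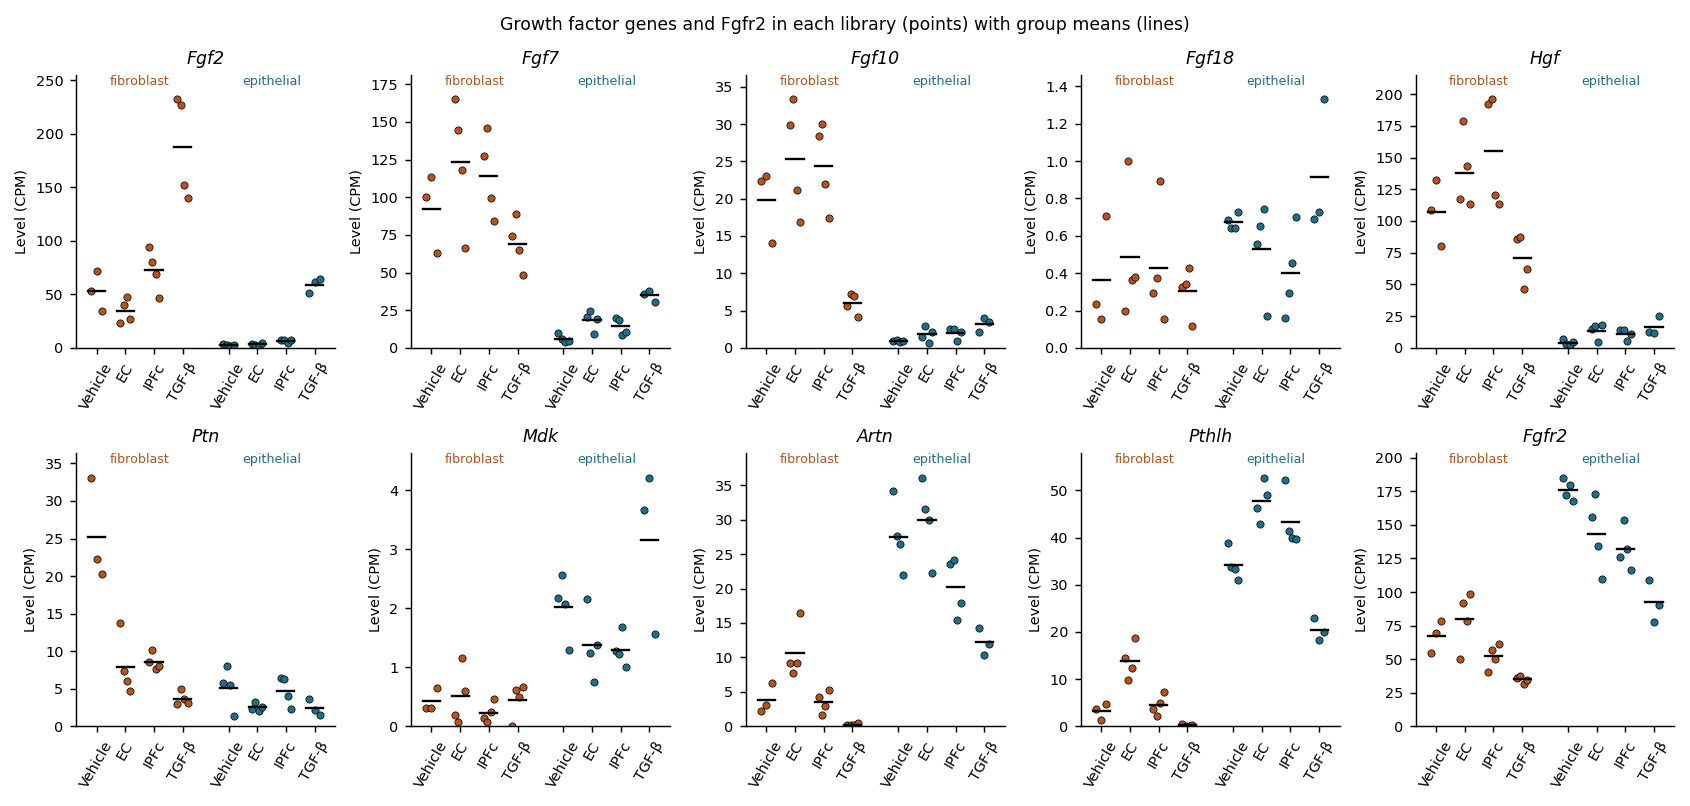
Level of each of the 10 genes in CPM (vertical axes, linear and from 0) in every library (points) of the 8 groups (horizontal axes), with group means as lines. Fgf2 in fibroblast TGF-β libraries (140.1 to 232.2 CPM) lies above every other group, and Ptn in fibroblast vehicle libraries (20.3 to 33.1 CPM) lies above every treated group.

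The question of the fibroblast comparisons was which factors changed in fibroblasts when the cultures met EC, IPFc or TGF-β. Against vehicle, 3 of the 10 genes were called in fibroblast EC libraries, 2 higher and 1 lower, where 7.11% of all genes tested were called (4.28% higher and 2.84% lower). With IPFc 1 was called, lower, beside 0.449% of all genes (0.305% higher and 0.144% lower). With TGF-β 7 were called, 1 higher and 6 lower, beside 19.2% of all genes (6.39% higher and 12.8% lower). The median log2 fold change of the 10 genes was 0.29 with EC, 0.16 with IPFc and -0.74 with TGF-β, beside -0.02, -0.00 and -0.02 over all genes. The 3 comparisons share the same vehicle libraries. EC was the contrast from which the study itself picked Artn, Pthlh and Ptn, so the calls of these 3 genes there are not independent evidence. The same holds for their values in other comparisons that use the fibroblast EC libraries, the EC interaction included.

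Fgf2 (ENSMUSG00000037225, chromosome 3, 37348477 to 37410106, GRCm38.p6) encodes basic FGF. Its level in fibroblast libraries was 53.1, 71.6 and 34.2 CPM under vehicle (mice 1, 3 and 4), 23.5, 40, 47.6 and 27.3 CPM under EC, 94.6, 79.9, 69 and 47 CPM under IPFc, and 232.2, 226.9, 152.6 and 140.1 CPM under TGF-β (mice 1 to 4). Each TGF-β library was above each vehicle library, while EC and IPFc overlapped vehicle. Fgf2 rose with TGF-β by a log2 fold change of 1.90 (SE 0.22, adjusted p = 4.2e-06). With EC the value was -0.57 (SE 0.21, adjusted p = 0.111) and with IPFc 0.44 (adjusted p = 0.775). The EC value passed the threshold without the filter on low counts (adjusted p = 0.0113), without mouse 1 (0.0480) and in a fit of these treatments alone (0.0310). Beside it, the 29 fibroblast markers tested had a median of -0.44 in the same comparison, with 10 lower and 2 higher. EC was below IPFc by -1.01 (SE 0.19, adjusted p = 0.00289), in a comparison where 4 of the 10 genes passed, 3 higher and 1 lower under EC, and 10.4% of all genes did (6.28% higher and 4.16% lower). With the epithelial share subtracted this difference was -0.58 and no longer called (0.650), and none of the other 3 calls remained. The carried-over level of Fgf2 in fibroblast libraries was 0.246 to 2.62 CPM. With the epithelial share subtracted, the TGF-β difference was 1.56 (adjusted p = 0.00860). Nudt6, a coding gene that overlaps Fgf2 on the opposite strand, had mean levels of 2.7 CPM under vehicle and 2.38 CPM under TGF-β in the same libraries.

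Fgf7 (ENSMUSG00000027208, chromosome 2, 126034658 to 126091185) encodes keratinocyte growth factor. In fibroblast libraries it was at 100.2, 113.3 and 62.8 CPM under vehicle, 165.0, 144.4, 118.4 and 66.3 CPM under EC, 127.3, 146.0, 99.8 and 84.2 CPM under IPFc, and 74.2, 88.7, 65.2 and 48.1 CPM under TGF-β. All 4 groups overlapped. The log2 fold change was 0.34 with EC (adjusted p = 0.196), 0.24 with IPFc (0.958) and -0.41 with TGF-β (SE 0.15, 0.0677). The TGF-β value passed without mouse 1 (-0.48, adjusted p = 0.00899) and with the epithelial share subtracted (-0.76, adjusted p = 0.0291). Fgf7 was higher under EC than under TGF-β by 0.75 (SE 0.14, adjusted p = 3.8e-04) and higher under IPFc than under TGF-β by 0.65 (SE 0.14, 0.00232). In each of these comparisons 8 of the 10 genes passed, 7 higher and Fgf2 lower. Of all genes, 35.4% passed between EC and TGF-β (19.9% higher and 15.5% lower under EC) and 17.4% between IPFc and TGF-β (12.1% higher and 5.33% lower under IPFc).

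Fgf10 (ENSMUSG00000021732, chromosome 13, 118714699 to 118792573) encodes the FGF that drives branching of the lung bud. Its fibroblast levels were 22.3, 23.1 and 14.1 CPM under vehicle, 29.9, 33.3, 21.1 and 16.9 CPM under EC, 28.4, 30, 21.9 and 17.4 CPM under IPFc, and 5.6, 7.28, 6.93 and 4.08 CPM under TGF-β. Only the TGF-β libraries were separate from vehicle among these treatments, all of them lower. Fgf10 fell with TGF-β by 1.72 on the log2 scale (SE 0.16, adjusted p = 4.9e-07). With EC it was at 0.28 (0.309) and with IPFc at 0.22 (0.996). The carried-over level was at most 1.26 CPM, and with the share subtracted the TGF-β difference was -2.08 (adjusted p = 1.2e-04).

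Hgf (ENSMUSG00000028864, chromosome 5, 16553495 to 16619439) encodes hepatocyte growth factor, the ligand of MET. It was at 108.8, 132.0 and 80 CPM under vehicle, 117.7, 178.5, 143.2 and 113.0 CPM under EC, 192.4, 195.8, 120.4 and 113.2 CPM under IPFc, and 86, 87.5, 46.6 and 62.5 CPM under TGF-β. The TGF-β libraries reached into the vehicle range with their upper values. Hgf fell with TGF-β by 0.62 (SE 0.18, adjusted p = 0.0244), a call that was lost without mouse 2 (0.0698), without mouse 4 (0.0549), without the mouse as a block (0.217) and without mouse 3, where the value was -0.28 (0.392). With the epithelial share subtracted it was -0.96 (0.0268). The values with EC, 0.31 (0.332), and IPFc, 0.43 (0.670), did not pass.

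Ptn (ENSMUSG00000029838, chromosome 6, 36714924 to 36810179), the gene of pleiotrophin, was lower with each of the 3 treatments. It was at 33.1, 22.3 and 20.3 CPM under vehicle, 13.7, 7.32, 5.96 and 4.66 CPM under EC, 8.5, 10.1, 7.63 and 8.06 CPM under IPFc, and 2.92, 4.95, 3.68 and 3.12 CPM under TGF-β. Every treated library was below every vehicle library. Ptn fell by 1.76 with EC (SE 0.25, adjusted p = 4.9e-04), by 1.56 with IPFc (SE 0.24, 0.00498) and by 2.69 with TGF-β (SE 0.26, 5.3e-07). It was the only one of the 10 genes called with IPFc, and that call was lost without mouse 3 (adjusted p = 0.134) or mouse 4 (-1.64). The carried-over level was 0.0208 to 1.51 CPM. With the share subtracted the values were -1.50 with EC (adjusted p = 0.189), -1.67 with IPFc (0.303) and -3.01 with TGF-β (8.8e-04). Subtraction left 34 genes of 17381 called with EC and 3 with IPFc, against 1284 and 81 before.

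Artn (ENSMUSG00000028539, chromosome 4, 117925908 to 117930795) and Pthlh (ENSMUSG00000048776, chromosome 6, 147252109 to 147264013) moved together in fibroblast libraries, higher with EC and lower with TGF-β. The epithelial share of these libraries moved in the same directions, at 23.1% under vehicle, 44.2% under EC and 2.28% under TGF-β. Shared regulation of Artn and Pthlh was not tested. Sequence before a RefSeq transcript start of each gene is shown because these are the members that moved together, and it was searched for motifs of factors that the cytokines of EC and TGF-β act through. From the 250 bases before that start (GRCm38.p6, minus strand), the bases that no spliced GENCODE transcript holds are given, 217 for Artn at chr4:117929797-117930013 and 80 for Pthlh at chr6:147264184-147264263. The start used for Artn lies inside the annotated span of the gene, so its stretch is within that span and not before the gene, while that of Pthlh is outside the span. The sequences are printed with capitals for a match to the CAGA box, the short motif bound by SMAD proteins, here on the reverse strand.
Artn: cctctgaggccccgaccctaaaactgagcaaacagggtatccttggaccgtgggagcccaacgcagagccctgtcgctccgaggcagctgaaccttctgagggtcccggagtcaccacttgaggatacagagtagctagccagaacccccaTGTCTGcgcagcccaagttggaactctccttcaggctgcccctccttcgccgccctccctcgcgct
Pthlh: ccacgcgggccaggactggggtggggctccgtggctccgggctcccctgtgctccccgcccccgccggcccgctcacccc
The motifs searched on both strands of the whole 250 bases were the CAGA box (CAGACA, in 17.1% of 32851 RefSeq promoters), the SMAD palindrome (GTCTAGAC, 0.167%), AP-1 (TGANTCA, 6.75%), STAT (TTCNNNGAA, 7.02%) and NF-κB (7.25%). Of the 9 members with such a sequence, Artn held the CAGA box that starts at -99 and Fgf18 an NF-κB match at -36. No other match was found in these windows, Pthlh included. A match is a description of letters and not a binding site.

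In fibroblast libraries Artn was at 2.2, 3.1 and 6.34 CPM under vehicle, 9.19, 7.68, 9.19 and 16.5 CPM under EC, 4.18, 1.65, 2.98 and 5.19 CPM under IPFc, and 0.244, 0.137, 0.123 and 0.48 CPM under TGF-β. Pthlh was at 3.62, 1.39 and 4.74 CPM under vehicle, 14.5, 9.83, 12.4 and 18.8 CPM under EC, 3.59, 2.1, 4.89 and 7.21 CPM under IPFc, and 0.487, 0, 0 and 0.18 CPM under TGF-β. For both genes every EC library was above every vehicle library and every TGF-β library was below, while IPFc overlapped vehicle. Against vehicle, Artn rose with EC by 1.77 (SE 0.26, adjusted p = 6.9e-04) and fell with TGF-β by 3.63 (SE 0.35, 7.3e-07). Pthlh rose with EC by 2.44 (SE 0.36, 8.5e-04) and fell with TGF-β by 4.03 (SE 0.55, 3.7e-05). With IPFc the values were 0.10 for Artn (1.00) and 0.72 for Pthlh (0.813). EC was above IPFc by 1.66 for Artn (SE 0.23, 2.4e-04) and by 1.72 for Pthlh (SE 0.31, 0.00186). These differences use the same EC libraries from which the study picked both genes. Without the mouse as a block the EC value of Artn was 1.51 (adjusted p = 0.0820).

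The group means of both genes were under the level that the epithelial RNA in the same libraries would carry with it. In epithelial libraries Artn was at 34.1, 27.6, 26.5 and 21.9 CPM under vehicle and Pthlh at 38.8, 33.8, 33.4 and 30.9 CPM. The carried-over level of Artn in fibroblast libraries was on average 6.15 CPM under vehicle, where 3.88 CPM was measured, 12.9 CPM under EC (10.6 measured), 3.95 CPM under IPFc (3.5 measured) and 0.285 CPM under TGF-β (0.246 measured). For Pthlh it was 7.81 CPM under vehicle (3.25 measured), 21.2 under EC (13.9 measured), 8.51 under IPFc (4.45 measured) and 0.473 under TGF-β (0.167 measured). Of the 15 fibroblast libraries, 6 were above their carried-over level for Artn and 1 for Pthlh. After subtraction 0 of 167 reads of Artn remained in vehicle libraries and 65 of 609 in EC libraries, all in the library of mouse 4. Of Pthlh, 0 of 138 reads remained under vehicle, 0 of 762 under EC and 0 of 252 under IPFc, so that it was no longer tested there. The share is a median, and single markers spread around it. In the EC library of mouse 4, for instance, the quartiles of the ratios of 34 markers were 52.7 and 73.6%, the ratio of Artn was 73.9% and that of Pthlh 38.4%. Of the 37 epithelial markers, 17 were called higher with EC in fibroblast libraries and 37 lower with TGF-β, in the same directions as Artn and Pthlh. Of all genes, 4.28% were called higher with EC and 12.8% lower with TGF-β there.

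**Figure D3:**
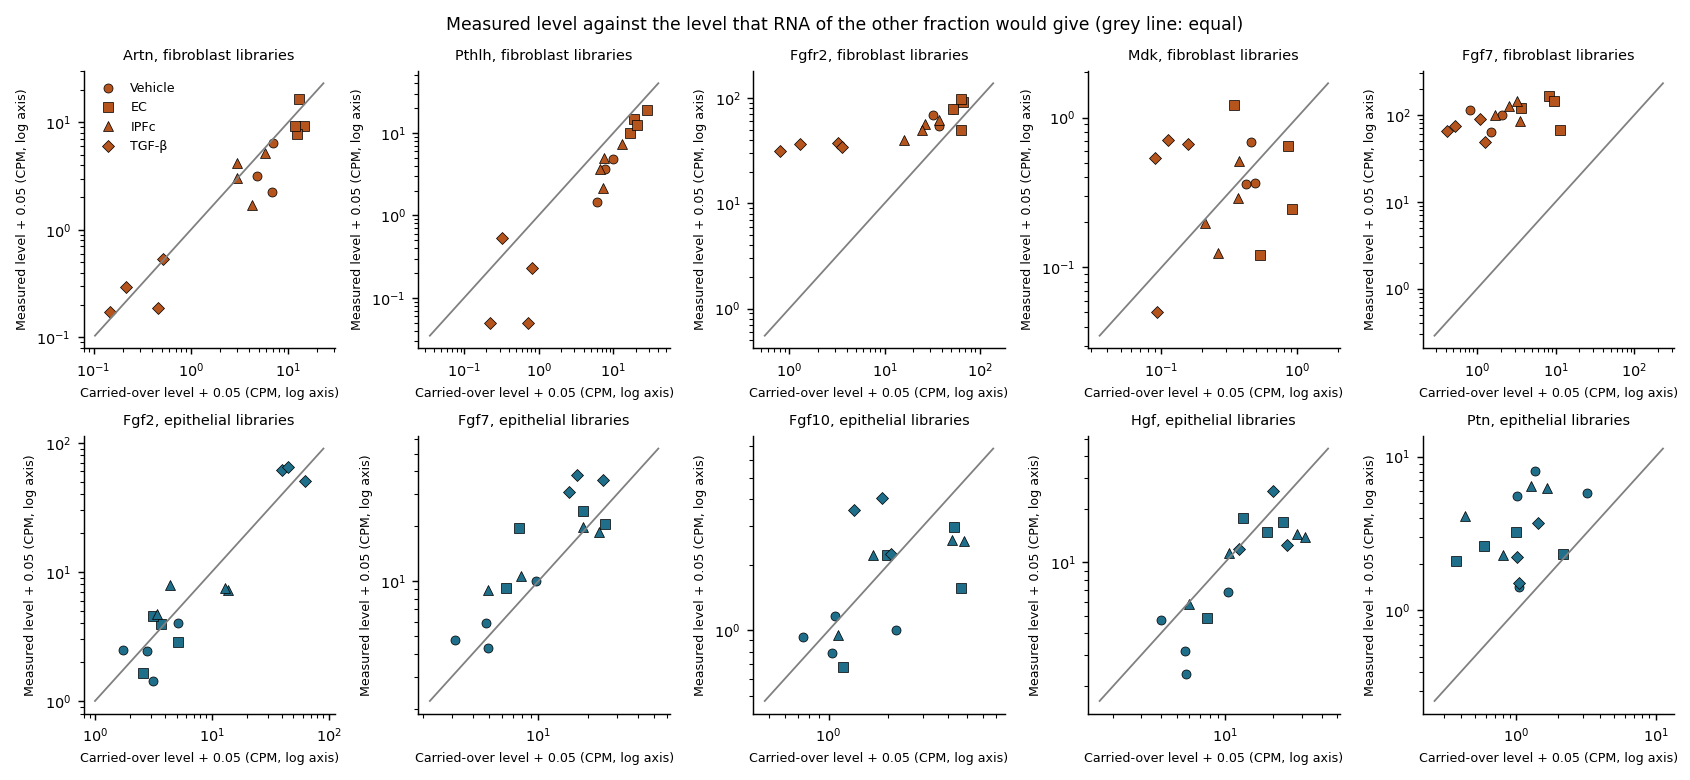
Measured level of 5 genes in fibroblast libraries (top) and 5 in epithelial libraries (bottom) against the level that RNA of the other fraction would give, both in CPM plus 0.05 on log axes, with a grey line where they are equal and symbols for treatments. Artn and Pthlh lie along or under the line in fibroblast libraries, where Fgf7 lies far above it, and Hgf lies along or under the line in epithelial libraries.

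Fgfr2 (ENSMUSG00000030849, chromosome 7, 130162451 to 130266808) encodes the receptor of FGF7 and FGF10, whose IIIb splice form is the epithelial one. The counts are per gene and do not separate splice forms. In epithelial libraries it was at 185.2, 172.2, 179.4 and 168.1 CPM under vehicle, 155.7, 173.0, 134.0 and 109.4 CPM under EC, 126.3, 153.9, 131.7 and 116.4 CPM under IPFc, and 109.0, 78 and 90.1 CPM under TGF-β. IPFc and TGF-β libraries were below all vehicle libraries. Fgfr2 fell with TGF-β by 1.03 (SE 0.11, adjusted p = 1.8e-07) and with IPFc by 0.43 (SE 0.10, 0.0115), the latter lost without mouse 1 (0.129), without the block (0.0913) and with the fibroblast share subtracted (-0.36, 0.214). The EC value was -0.29 (SE 0.10, 0.115). The TGF-β difference was -0.75 (adjusted p = 5.0e-04) with the fibroblast share subtracted.

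In fibroblast libraries Fgfr2 was at 54.4, 69.4 and 78.7 CPM under vehicle, 49.9, 91.7, 78.2 and 98.6 CPM under EC, 40.3, 56.8, 50 and 61.2 CPM under IPFc, and 36.2, 37.6, 31.5 and 34.1 CPM under TGF-β. All TGF-β libraries were below vehicle, and Fgfr2 fell there by 0.86 (SE 0.15, adjusted p = 3.1e-04). EC was above IPFc by 0.63 (SE 0.13, 0.00626), a call that was lost without mouse 2 (0.0606), 3 (0.0682) or 4 (0.0729). The mean carried-over level was 40.6 CPM under vehicle, 61.6 under EC, 26.2 under IPFc and 2.17 under TGF-β. This left 26.9, 17.9, 25.9 and 32.7 CPM, and 14 of the 15 libraries were above their carried-over level. In TGF-β libraries the ratio of Fgfr2 to the epithelial library of the same culture was 34.5 to 40.4%, where the marker median was 0.949 to 3.9% and 1 marker was above Fgfr2 in each library. With the share subtracted the difference between TGF-β and vehicle was 0.11, with an adjusted p of 0.996. Ctbp2, which overlaps Fgfr2 on the same strand, had mean levels of 41.2 to 50.5 CPM in fibroblast groups.

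Fgf18 (ENSMUSG00000057967, chromosome 11, 33116970 to 33147400) and Mdk (ENSMUSG00000027239, chromosome 2, 91929805 to 91932297) were close to the lower limit of these libraries. Fgf18 had 1 to 15 reads in each library, 0.12 to 1.33 CPM, with no call in any comparison. Mdk had 0 to 19 reads in each fibroblast library, 0 to 1.16 CPM, and 0.744 to 4.21 CPM in epithelial libraries. It was lower in fibroblast than in epithelial libraries of vehicle, IPFc and TGF-β cultures, and not called with any treatment. SEs of their log2 fold changes against vehicle in fibroblast libraries were 0.70 to 0.85. In epithelial libraries Mdk had 13 to 69 reads per library.

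**Figure D4:**
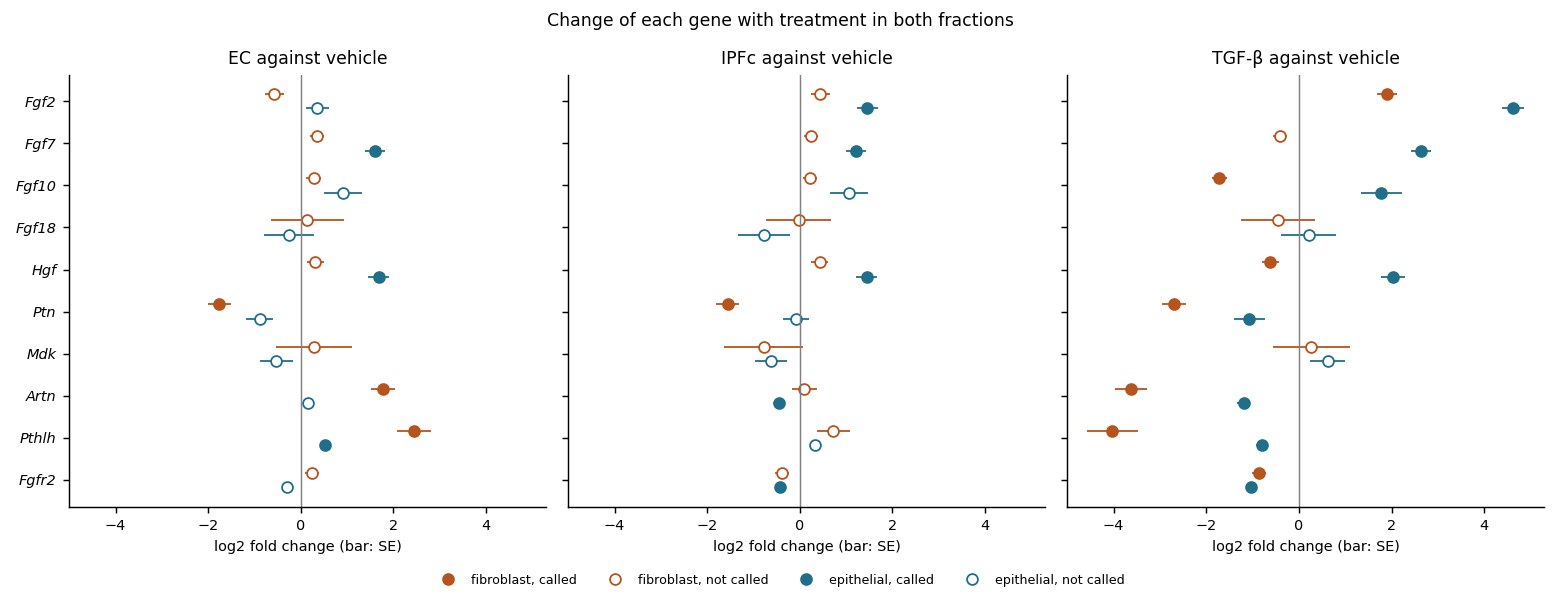
Log2 fold change against vehicle (horizontal axes) of the 10 genes (vertical axis) with EC, IPFc and TGF-β in fibroblast and epithelial libraries, with bars for the SE and filled points for an adjusted p under 0.05. With TGF-β, Fgf10 and Hgf are on opposite sides of 0 in the fractions, and Fgf2 is above 0 in both.

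In epithelial libraries 3 of the 10 genes were called with EC, all higher, beside 4.41% of all genes (1.96% higher and 2.44% lower). With IPFc 5 were called, 3 higher and 2 lower, beside 4.10% of all genes (2.57% higher and 1.53% lower). With TGF-β 8 were called, 4 higher and 4 lower, beside 41.1% of all genes (21.0% higher and 20.1% lower). Apart from Pthlh, which rose with EC, the genes that rose were those with higher levels in fibroblast libraries. Fgf2 was at 3.96, 2.4, 1.38 and 2.42 CPM under vehicle, 3.88, 2.84, 1.6 and 4.5 CPM under EC, 7.18, 7.52, 4.65 and 7.84 CPM under IPFc, and 50.9, 61.6 and 64.4 CPM under TGF-β. Every IPFc and TGF-β library was above every vehicle library, and Fgf2 rose with IPFc by 1.46 (SE 0.22, adjusted p = 3.5e-04) and with TGF-β by 4.62 (SE 0.23, 3.2e-12). Fgf7 was at 10, 5.85, 4.23 and 4.68 CPM under vehicle, 20.4, 24.2, 9.1 and 19.4 CPM under EC, 19.8, 18.5, 8.85 and 10.6 CPM under IPFc, and 36, 38 and 30.8 CPM under TGF-β. Only TGF-β was separate from vehicle for Fgf7. It rose by 1.60 with EC (SE 0.21, 4.3e-05), 1.21 with IPFc (SE 0.21, 0.00131) and 2.64 with TGF-β (SE 0.22, 8.1e-09). Hgf was at 6.75, 3.12, 2.31 and 4.68 CPM under vehicle, 14.7, 16.9, 4.81 and 17.8 CPM under EC, 14.5, 13.8, 5.81 and 11.2 CPM under IPFc, and 12.5, 11.8 and 25.3 CPM under TGF-β. EC and IPFc libraries of mouse 3 lay within the vehicle range. Hgf rose by 1.68 with EC (SE 0.23, 8.5e-05), 1.44 with IPFc (SE 0.23, 6.8e-04) and 2.03 with TGF-β (SE 0.25, 1.6e-06). Fgf10, at 0.738 to 1.12 CPM under vehicle and 2.18 to 3.97 CPM under TGF-β, rose with TGF-β by 1.78 (SE 0.44, 0.00240).

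These rises stood beside a higher share of fibroblast RNA in the treated epithelial libraries. Carried-over levels in TGF-β libraries were on average 49.1 CPM for Fgf2 (59 measured), 19 CPM for Fgf7 (34.9 measured), 1.71 CPM for Fgf10 (3.22 measured) and 18.8 CPM for Hgf (16.5 measured). Of the 15 epithelial libraries, 4 were above their carried-over level for Hgf, 7 for Fgf2, 7 for Fgf10 and 12 for Fgf7. With the fibroblast share subtracted, Fgf2 (6.92, adjusted p = 0.00223), Fgf7 (4.53, 0.00898) and Fgf10 (4.68, 0.0393) were still called with TGF-β, and Hgf was not (2.88, 0.162). The subtracted values rest on 434 of 2252 reads of Fgf2, 603 of 1402 of Fgf7 and 48 of 119 of Fgf10 in TGF-β libraries, and on 9, 39 and 3 reads in vehicle libraries, so their sizes depend on very few counts. Neither Fgf7 nor Hgf was called with EC or IPFc after subtraction, and the call of Fgf2 with IPFc was lost as well (2.93, 0.523), with 65 of 392 reads left and 2 of the 4 libraries at 0.

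Artn and Pthlh, both expressed on the epithelial side, differed in their response there. Pthlh was at 46.3, 42.9, 52.7 and 49 CPM under EC, 52.3, 41.3, 40 and 39.7 CPM under IPFc, and 22.9, 18.2 and 19.9 CPM under TGF-β, beside 30.9 to 38.8 CPM under vehicle. All EC and IPFc libraries were above vehicle and all TGF-β libraries below. Pthlh rose with EC by 0.52 (SE 0.11, adjusted p = 0.00733) and fell with TGF-β by 0.80 (SE 0.13, 4.9e-05). The IPFc value was 0.33 (SE 0.11, 0.122). The EC call was lost without mouse 3 (0.0669) and kept after subtraction of the fibroblast share (0.58, 0.0246), while the TGF-β value became -0.39 (0.0523). Artn was at 36.1, 31.5, 29.9 and 22.3 CPM under EC, 23.5, 24.1, 15.5 and 17.9 CPM under IPFc, and 14.2, 10.3 and 12 CPM under TGF-β. It fell with TGF-β by 1.19 (SE 0.14, 5.5e-07), where no library overlapped vehicle, and with IPFc by 0.45 (SE 0.12, 0.0294), a call lost without mouse 1 (0.230), 2 (0.0622) or 3 (0.189). Its EC value was 0.15 (0.615).

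Ptn was low in epithelial libraries but above its carried-over level in all 15. It was at 5.73, 8.01, 5.51 and 1.37 CPM under vehicle, 2.28, 3.2, 2.06 and 2.59 CPM under EC, 6.38, 6.24, 4.07 and 2.25 CPM under IPFc, and 3.67, 2.19 and 1.45 CPM under TGF-β, with overlap between all groups. It fell with TGF-β by 1.07 (SE 0.34, 0.0145), which was lost without mouse 2 (0.0871) or 3 (0.127). The EC value of -0.89 (0.112) passed without mouse 4, whose vehicle library was the lowest (-1.34, 0.00149).

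Whether a response differed between fractions was tested as an interaction over all 30 libraries. The block was the mouse within a fraction, so the epithelial and fibroblast libraries of a culture were not paired in this test. With EC 4 of the 10 genes passed (4.59% of all genes, 3.33% higher and 1.26% lower in the fibroblast response). The fibroblast response was higher for Pthlh by 1.88 (SE 0.32, adjusted p = 0.00118) and for Artn by 1.60 (SE 0.24, 3.6e-04), and lower for Hgf by -1.36 (SE 0.32, 0.0122) and for Fgf7 by -1.25 (SE 0.28, 0.00861). The study picked Artn and Pthlh in the fibroblast EC contrast that enters this test, so their values here are not independent evidence. With TGF-β 7 passed (27.5% of all genes, 7.36% higher and 20.2% lower), and all were lower in the fibroblast response. They were Fgf10 (-3.46), Pthlh (-3.28), Fgf7 (-3.07), Fgf2 (-2.74), Hgf (-2.65), Artn (-2.46) and Ptn (-1.65), with a median of -2.56 over the 10 genes and -0.21 over all genes. With IPFc edgeR called 0 of the 10 genes (0.229% of all genes, 0.0436% higher and 0.185% lower), 6 had an unadjusted p under 0.05 and DESeq2 called 1. With EC and TGF-β the mean shares of the other fraction's RNA changed in both fractions. With IPFc the share in fibroblast libraries stayed within its spread (23.1% ± 7.26 under vehicle, 20.2% ± 8.46 under IPFc). In epithelial libraries its mean was 6% under vehicle and 11.2% under IPFc. After subtraction the lowest adjusted p among the 10 genes with EC was 0.0774 (Hgf), and 4 genes passed with TGF-β.

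The receptors of these factors differed between fractions. By length in vehicle libraries, Met was at 29.4 RPKM in epithelial and 9.75 RPKM in fibroblast libraries, Fgfr3 at 10.8 and 2.49, Ret at 2.21 and 0.474, and Fgfr1, the main FGF receptor of mesenchymal cells, at 1.3 and 14.3 RPKM. Fgfr1 was higher in fibroblast libraries by a log2 fold change of 3.38 (SE 0.29, adjusted p = 1.1e-07), and Met (-1.73, 1.1e-06), Fgfr3 (-2.30, 8.6e-05), Ret (-2.38, 3.4e-06) and Ptprz1 (-3.08, 1.4e-04) were lower. Of these 10 receptors, 8 were tested in fibroblast libraries, where 2 rose with EC (7.11% of all genes called) and 1 rose and 5 fell with TGF-β (19.2%), and 7 in epithelial libraries, where 1 rose and 6 fell with TGF-β (41.1%). Gfra3, the binding subunit for artemin, was at 0 in every group but fibroblast IPFc, where its mean was 0.0194 CPM. Pth1r had group means of 0.0173 to 0.305 CPM, and Alk at most 0.085 CPM. In fibroblast libraries Fgfr1 rose with TGF-β by 0.91 (SE 0.13, 5.1e-05), while Fgfr3 (-3.20), Met (-0.61), Ret (-1.91) and Ptprz1 (-4.61) fell there. With EC, Met (0.58, 0.0414) and Ret (1.20, 0.0210) rose, where carried-over levels were 105.0 CPM for Met (112.0 measured) and 7.67 CPM for Ret (7.59 measured). For Fgfr3 the carried-over level in fibroblast vehicle libraries was 21.5 CPM (22 measured), and for Ptprz1 1.18 CPM (0.68 measured). In epithelial libraries Met fell with TGF-β by 0.78 (SE 0.11, 9.4e-06), Fgfr3 by 1.25 (SE 0.12, 2.6e-08), Fgfr4 by 1.43 (SE 0.48, 0.0207), Ret by 0.57 (SE 0.16, 0.00601) and Ptprz1 by 2.28 (SE 0.26, 3.8e-07). Fgfr4 was low, at 1.24 CPM under vehicle and 0.496 CPM under TGF-β, with 1 to 12 reads per TGF-β library. The fibroblast share in epithelial libraries was 28.5% under TGF-β against 6% under vehicle, and its part in these falls was not tested. Fgfr1 rose there by 2.51 (SE 0.18, 5.7e-10), where the carried-over level was 93.9 CPM and 92.4 CPM was measured, and by 0.63 with IPFc (SE 0.16, 0.0312). Under IPFc it was at 213.4 CPM in fibroblast and 26.7 CPM in epithelial libraries. The fibroblast share in epithelial libraries was 6% under vehicle and 11.2% under IPFc, and its part in the IPFc rise was not tested. Fgfr3 fell with EC by 0.75 (SE 0.10, 6.3e-05) and with IPFc by 0.43 (SE 0.10, 0.0150).

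**Figure D5:**
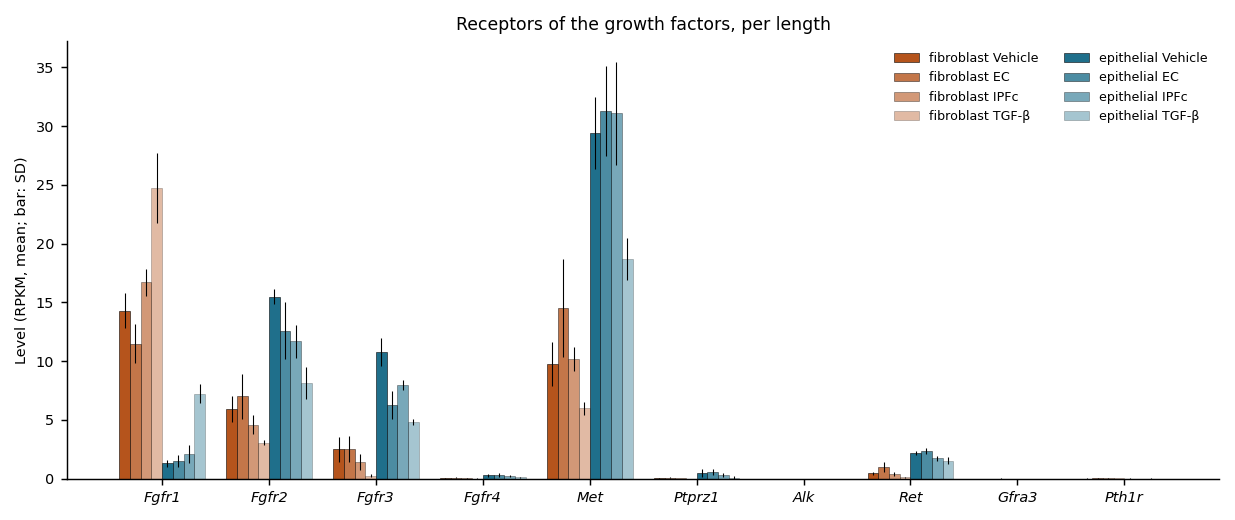
Mean level of the receptors per gene length in RPKM (vertical axis, from 0) in the 8 groups (bars), with the SD as lines. Met and Fgfr3 are highest in epithelial groups and Fgfr1 in fibroblast groups, while Alk, Gfra3 and Pth1r lie near 0.

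Among all 22 FGF ligands listed, 12 had enough reads to be tested in fibroblast libraries and 8 in epithelial libraries. In fibroblast libraries 1 rose and 4 fell with TGF-β, beside 6.39% of all genes called higher and 12.8% lower. Among those that fell were Fgf1 (-4.29, adjusted p = 6.8e-09) and Fgf13 (-4.80, 7.4e-07), and Fgf13 rose with EC (1.72, 0.00306). In epithelial libraries Fgf1 fell with EC (-0.90, 3.2e-05) and IPFc (-0.43, 0.0318), and Fgf13 rose with EC (0.51, 0.00455) and fell with TGF-β (-0.75, 3.6e-05). Of 11 FGF receptors and binding proteins, 9 were tested. In fibroblast libraries 1 rose with EC (4.28% of all genes called higher) and 3 rose and 3 fell with TGF-β (6.39% higher and 12.8% lower). In epithelial libraries 3 rose and 4 fell with TGF-β (21.0% higher and 20.1% lower). Fgfbp1, which releases FGFs from matrix, rose with EC in fibroblast libraries (1.33, 0.00490) and fell with TGF-β in fibroblast (-4.39, 3.4e-08) and epithelial libraries (-1.30, 3.0e-08). Its fibroblast levels were under the carried-over ones, 24 against 33.5 CPM under vehicle, 51.9 against 64.9 under EC and 0.973 against 1.55 under TGF-β. Fgf13 was likewise at 4.57 against 7.9 CPM under vehicle and 13.8 against 19.5 under EC, and Fgf1 at 12.7 against 6.99 CPM under vehicle and 0.672 against 0.727 under TGF-β. The adaptor Frs2 rose with TGF-β in fibroblast (0.62, 0.0236) and epithelial libraries (0.83, 3.4e-06). Under TGF-β it was at 133.5 CPM in fibroblast and 72.1 CPM in epithelial libraries, and the fibroblast share in the latter was 28.5%. The part of that share in the epithelial rise was not tested.

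Of 15 feedback and target genes of FGF and ERK signalling, all were tested. With TGF-β 7 rose and 3 fell in fibroblast libraries (19.2% of all genes called), and 8 rose and 3 fell in epithelial libraries (41.1%). The ERK phosphatase genes Dusp5 (1.96, adjusted p = 4.4e-07) and Dusp6 (1.22, 6.4e-05) and the transcription factor gene Etv4 (0.94, 2.9e-05) rose in fibroblast libraries, and Etv5 (-0.80, 0.00342), Spry1 (-0.85, 0.00887) and Etv1 (-0.61, 0.00504) fell. Under vehicle, epithelial libraries held more Etv5 (83.1 against 52.8 CPM) and Spry1 (24.7 against 11.2 CPM) than fibroblast libraries, and less Etv1 (14.9 against 162.8 CPM). The epithelial share in fibroblast libraries was 23.1% under vehicle and 2.28% under TGF-β, and its part in these falls was not tested. In epithelial libraries Dusp5 (1.08, 1.1e-06) rose and Etv5 (-0.87, 5.2e-06) fell with TGF-β, and Etv1 rose with IPFc (1.38, 5.3e-06). Carried-over levels in these epithelial libraries were 29 CPM for Dusp5 under TGF-β (40 measured) and 24.1 CPM for Etv1 under IPFc (38.4 measured). With EC 1 of the 15 was called in each fraction, Il17rd in fibroblast (-1.07, 0.0295) and Etv5 in epithelial libraries (-0.45, 0.0135), both lower. Of all genes, 7.11% were called with EC in fibroblast and 4.41% in epithelial libraries.

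Of 13 genes of HGF activation and MET, 12 were tested. In fibroblast libraries 5 rose with EC (4.28% of all genes called higher), Met and the epithelial proteases and inhibitors St14 (1.17, adjusted p = 0.00174), Hpn (1.11, 0.00377), Spint2 (1.35, 0.00967) and Spint1 (0.88, 0.0148). With TGF-β 6 fell there (12.8% of all genes called lower), led by Spint1 (-3.70, 6.6e-09) and St14 (-3.23, 7.7e-09). Under vehicle, Spint1 was at 166.1 CPM in epithelial and 34.4 CPM in fibroblast libraries, and St14 at 242.2 and 42.6 CPM. The epithelial share in fibroblast libraries was 23.1% under vehicle and 2.28% under TGF-β, and its part in these falls was not tested. Measured levels under EC were near or under the carried-over ones, at 90.8 against 107.3 CPM for St14, 27 against 31.9 for Hpn, 301.9 against 287.5 for Spint2 and 59.6 against 63.1 for Spint1. The plasminogen activator genes Plau (1.05, 8.0e-05) and Plat (0.89, 7.2e-05) rose there with TGF-β. In epithelial libraries Plat rose with EC (1.37, 7.4e-06) and TGF-β (1.46, 6.7e-07). Of 16 genes around pleiotrophin and midkine, 14 were tested. With TGF-β 5 rose and 4 fell in fibroblast libraries (19.2% of all genes called), and 7 rose and 4 fell in epithelial libraries (41.1%). Itgb3, an integrin subunit, rose with TGF-β in fibroblast (3.65, 7.7e-11) and epithelial libraries (5.35, 2.0e-12) and with IPFc in fibroblast libraries (1.39, 1.3e-04). Sdc4 fell with TGF-β in fibroblast libraries (-1.43, 8.6e-06), and Sdc3 rose with TGF-β in epithelial libraries (3.09, 2.5e-09). In epithelial TGF-β libraries the carried-over level was 57.3 CPM for Itgb3 (66.5 measured) and 66.4 CPM for Sdc3 (92 measured). Of 10 genes of the GDNF family, 7 were tested in fibroblast libraries, where 2 rose and 3 fell with TGF-β (6.39% of all genes higher and 12.8% lower). Ncam1 rose with TGF-β in fibroblast (2.75, 5.7e-09) and epithelial libraries (5.32, 2.0e-12), and Gdnf fell in fibroblast libraries (-1.71, 3.7e-05). Of the 109.1 CPM of Ncam1 in epithelial TGF-β libraries, the carried-over level was 88.9 CPM. Of 9 genes around Pthlh and the lipid-storing fibroblast, 8 were tested in fibroblast libraries. There 3 rose with EC (4.28% of all genes higher) and 4 fell with TGF-β (12.8% lower). Pparg, the regulator of fat storage, fell with TGF-β (-3.66, 4.2e-06), and Lpl fell with TGF-β (-1.51, 1.7e-05) and IPFc (-0.94, 0.0394), while Plin2 (0.61, 0.00492) and Fabp4 (1.62, 0.0173) rose with EC. The carried-over level of Pparg in fibroblast vehicle libraries was 8.45 CPM (7.61 measured), and that of Plin2 was 70.8 CPM under vehicle (159.6 measured) and 127.8 CPM under EC (227.5 measured).

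Over the 15 fibroblast libraries, the genes whose log2 CPM followed each member most closely among 10790 genes differed from member to member. For Fgf2 they were Ednra, Pip4k2a and Chn1 (Pearson's r = 0.98 each), and for Fgf10 they were Serpina3f, Serpina3g (0.97 each) and Vldlr (0.96). Hgf was followed by Ero1l (0.95), Mindy2 (0.94) and Atp2b1 (0.93), Fgf7 by Pid1 (0.91), Ugcg (0.90) and Tmem45a (0.89), and Ptn by Calml4 (0.93), Clybl and Lpl (0.92 each). For Pthlh they were Dnaja3 (0.98) and Gcnt3 (0.97), and for Fgfr2 Epb41, Itih2 and Pkp2 (0.96 each), among which Gcnt3 and Pkp2 are known as epithelial genes. These libraries share treatments, mice and the epithelial share, so these values only describe likeness of pattern.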

How the data were processed

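RNA from both fractions was sequenced on an Illumina NovaSeq and reads were trimmed with Trimmomatic 0.30 per the submitters' processing notes. The authors deposited raw counts per gene and library, with no normalization. The notes name GRCm39 and the methods GRCm38, and the counting program and its strand setting are not given in the sources used here.

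The members and gene lists were chosen with earlier results of these data known. Counts were tested with edgeR 4.0.16 in R 4.3.3 (TMM, quasi-likelihood test, two-sided), for genes with a mean count of at least 1, with Benjamini-Hochberg adjustment over all genes tested and a threshold of 0.05. Treatments were compared within a fraction with the mouse as a block, fractions within a culture, and responses between fractions by an interaction. The labels name the mouse, so libraries of 1 mouse pair: deviations of same-mouse libraries correlated at 0.18 on average in fibroblast and 0.15 in epithelial libraries, against -0.06 and -0.05 between mice. SEs were computed from the log2 fold change and the F statistic. RPKM used exon lengths of GRCm39. Named genes were all members, their receptors, and in each other list up to 3 called genes with the smallest adjusted p per direction, fraction and treatment. Spint1 in fibroblast EC libraries was named outside this rule, to complete a list of 5, after its value was seen. Likeness of pattern used Pearson's correlation of log2 CPM among genes with a mean of at least 5 CPM. The share estimate was tested on simulated mixtures, in which the fibroblast profile held no epithelial marker reads. The edgeR fits were tested on simulated counts, and the other steps were not. DESeq2 1.42.0, other filters and scalings, fits without the block or without 1 mouse, and counts with the other fraction's share subtracted were tried as alternatives. Vehicle fibroblasts from mouse 2 and TGF-β epithelium from mouse 1 were not analysed here. When shares were computed for the libraries they would partner, the mean of the other cultures stood in. A gene that the naming rule selected is not reported here.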

Additional observations from a re-analysis of the deposited data

Results flagged for a closer look

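Pthlh in epithelial IPFc libraries had 1 library apart from the rest, that of mouse 1 at 52.3 CPM with the others at 39.7 to 41.3 CPM, a gap of 0.869 of the range. It was 1 of 60 groups of 4 libraries checked, and chance flags about 1 in 20.

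For 11 results the response to a treatment differed between fibroblast and epithelial libraries by the interaction test (edgeR, adjusted over all genes). With EC these were Artn (1.60), Pthlh (1.88), Hgf (-1.36) and Fgf7 (-1.25), as the fibroblast minus the epithelial log2 fold change. With TGF-β they were Fgf10 (-3.46), Pthlh (-3.28), Fgf7 (-3.07), Fgf2 (-2.74), Hgf (-2.65), Artn (-2.46) and Ptn (-1.65). The study picked Artn and Pthlh by their change in fibroblast EC libraries, so their EC values here are not independent evidence. The RNA share of the other fraction moved with treatment in both fractions, from 23.1 to 44.2% in fibroblast libraries with EC and from 6 to 28.5% in epithelial libraries with TGF-β. With these shares subtracted, Fgf2 (-5.18), Fgf7 (-5.20), Fgf10 (-6.68) and Hgf (-3.96) still passed with TGF-β. On the epithelial side these values rest on few reads. For Hgf 45 of 590 reads were left under TGF-β, all in 1 of 3 libraries, and 9 of 243 under vehicle, all in 1 of 4, and for Fgf10 48 reads were left under TGF-β and 3 under vehicle.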

How the results depend on the processing

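Subtracting the other fraction's RNA share changed the most. The number of the 10 genes called went from 3 to 0 for fibroblast EC against vehicle, 1 to 0 for IPFc against vehicle, 7 to 5 for TGF-β against vehicle (Artn and Fgfr2 no longer called, Pthlh no longer tested and Fgf7 gained), 4 to 0 for EC against IPFc, 8 to 5 for EC and for IPFc against TGF-β, 3 to 1 for epithelial EC, 5 to 0 for epithelial IPFc, 8 to 5 for epithelial TGF-β, and in the interaction 4 to 0 for EC and 7 to 4 for TGF-β. The sign turned under subtraction for Artn (1.94) and Fgfr2 (0.11) in fibroblast TGF-β libraries, Fgfr2 in EC against TGF-β (-0.11) and IPFc against TGF-β (-0.14), Hgf in epithelial IPFc libraries (-0.15), and Artn (2.68) and Pthlh (3.41) in the TGF-β interaction. Few reads were left for Artn and Pthlh in the fibroblast and for Hgf in the epithelial libraries concerned. Fgfr2 in fibroblast libraries kept more, 1107 of 2816 reads under vehicle, 1406 of 4636 under EC, 1465 of 2936 under IPFc and 1944 of 2076 under TGF-β. Subtraction also lowered the calls over all genes. Without the replicate block, calls went from 5 to 2 for epithelial IPFc and from 4 to 0 for the EC interaction. In the IPFc interaction, 4 genes were called without the filter and 1 by DESeq2, against 0. Leaving out 1 mouse gave 0 to 1 calls for fibroblast IPFc (0 without mouse 3 or 4), 3 to 5 for epithelial IPFc (3 without mouse 1), 5 to 8 between fractions under TGF-β (5 without mouse 2) and 2 to 4 for the EC interaction (2 without mouse 2 or 4). DESeq2 and its size factors kept all 92 called values of the members. The depth limits Fgf18 and Mdk, at 0 to 19 reads in fibroblast libraries, and the share is a median over markers that spread widely.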
